A study of Mus musculus with 12 samples.

Results

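MHC class II antigen presentation and T cell costimulation were followed in mouse endometrium through 10 genes: H2-Aa, H2-Ab1, H2-Eb1, Cd74, Ciita, H2-DMa, Cd80, Cd86, Cd40 and Itgax. They were chosen by name, out of 19938 genes that had at least 1 transcript cluster with a single symbol on the array, and all 10 were measured. A transcript cluster is the set of probes that reads 1 gene. Where a gene had more than 1 such cluster, the cluster with the highest mean over all arrays was taken, which applied only to Cd80.

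MHC class II molecules are pairs of an alpha and a beta chain that show peptides from ingested proteins to CD4+ T cells on the surface of dendritic cells, macrophages and B cells, and some epithelia make them when exposed to interferon-gamma. CD74, the invariant chain, fills the peptide groove until proteases in the endosome remove it and H2-DM helps load the peptide, and CIITA is the coactivator that switches this whole set of genes on. CD80 and CD86 give the T cell its second signal through CD28, CD40 receives the CD40 ligand of helper T cells and signals through NF-κB, and Itgax encodes the CD11c integrin chain found on dendritic cells and some macrophages. In the uterus, presentation of male antigens delivered at mating bears on maternal tolerance of the conceptus.

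Endometrial RNA was measured on 12 Affymetrix Mouse Gene 1.0 ST arrays, which carry probes spread along each transcript. The females were CBAF1, the first-generation cross of CBA and C57Bl/6 mice and aged 9 to 16 weeks. Of the 3 groups, control females were unmated and are labelled as in estrus, and the females called vasectomised and intact here had been mated 8 h earlier with BALB/c males that were vasectomised or intact. Each group had 4 arrays, with the RNA of 4 females pooled on every array. The spread between arrays is therefore one between pools, with the variation between single females averaged within them. Vasectomised males deliver seminal plasma without sperm, and the authors state that testicular, epididymal and vas deferens secretions are missing too. They also hold it possible that the surgery subtly changes accessory gland secretions. Sperm and these other differences therefore cannot be told apart between the mated groups. The methods put collection of controls in the evening of pro-estrus, so mating, the hour of collection and the cycle stage cannot be told apart in either comparison with controls. Both of those comparisons also use the same 4 control arrays.

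Class II promoters carry an X box, bound by the RFX complex, and a Y box, bound by NF-Y, on which CIITA acts. The promoters of H2-Aa and H2-Eb1 are printed because these genes moved together from array to array. Each runs from 250 bases before the annotated start to 50 bases after it, in the RefSeq annotation of GRCm38.p6. H2-Aa lies on the minus strand at chr17:34287774-34288073 and H2-Eb1 on the plus strand at chr17:34305617-34305916, and both sequences read 5′ to 3′ along the gene. Capitals mark GCAAC, a core of the X box, and CTGATTGG, which contains the Y box core ATTGG. The bases CTG before that core were taken up because both sequences share them.
H2-Aa: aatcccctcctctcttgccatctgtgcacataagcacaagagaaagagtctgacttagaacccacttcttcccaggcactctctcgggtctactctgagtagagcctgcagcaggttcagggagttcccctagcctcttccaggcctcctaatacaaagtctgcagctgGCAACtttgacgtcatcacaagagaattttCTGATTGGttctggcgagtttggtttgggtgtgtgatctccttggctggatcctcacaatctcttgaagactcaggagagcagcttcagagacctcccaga
H2-Eb1: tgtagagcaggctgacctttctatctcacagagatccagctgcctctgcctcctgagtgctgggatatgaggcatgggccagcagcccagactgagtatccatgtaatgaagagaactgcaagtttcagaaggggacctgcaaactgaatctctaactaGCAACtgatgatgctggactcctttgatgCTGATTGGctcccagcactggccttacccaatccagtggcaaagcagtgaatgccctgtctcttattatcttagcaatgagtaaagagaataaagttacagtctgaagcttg
The cores GCAAC and ATTGG stood 33 bases apart, from start to start, in H2-Aa and 32 bases apart in H2-Eb1. On either strand, GCAAC was found in 35.2% and ATTGG in 37.4% of 32851 mouse promoters of the same length, and CTGATTGG in 4.1%. GCAAC placed 20 to 50 bases before ATTGG on the same strand was found in 1.39%. Of the 10 genes 5 had a promoter in the table, and the promoters of H2-DMa, Cd80 and Itgax did not hold the cores in that arrangement. Among 19 other class II pathway genes with a promoter, H2-Oa, H2-Ob and H2-Eb2 also held it. H2-Oa gave log2 signals of 6.67, 6.67, 6.69 and 6.69 in controls 1 to 4, and H2-Eb2 5.95, 6.02, 6.21 and 5.91. H2-Ob gave 6.80, 6.76, 6.16 and 6.35, and it alone was higher in controls 1 and 2 than in controls 3 and 4. A match of letters is a description of the window and shows neither binding nor its absence.

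The values were deposited as log2 signals for 35556 transcript clusters, and array medians lay between 7.25 and 7.32. Differences are called here when they reached 1.5-fold in either direction with an adjusted p no greater than 0.05, by limma with Benjamini-Hochberg correction over all clusters. Controls 1 and 2 stood apart from controls 3 and 4. All 12 of 12 stromal and endothelial markers and 12 of 17 macrophage and monocyte markers were higher in both of the former than in both of the latter, against 19.9% of all clusters. Results that rest on the controls are therefore also given with each pair alone, a division made after the data were seen. As a check of the tissue label, epithelial markers were bright, with a mean log2 signal between 11.93 and 12.05 on all 12 arrays.

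The chains of the class II molecules showed no detectable difference between mated and unmated females within a wide spread, and none of H2-Aa, H2-Ab1 and H2-Eb1 was called in any comparison. H2-Aa, an alpha chain, gave log2 signals of 9.13, 9.70, 7.80 and 7.83 in controls 1 to 4, 8.9995, 8.29, 7.81 and 8.32 in vasectomised arrays 1 to 4, and 7.55, 8.24, 8.20 and 8.65 in intact arrays 1 to 4. H2-Ab1, the beta chain that pairs with it, gave 9.30, 10.04, 8.08 and 7.76 in controls, 9.26, 8.56, 8.40 and 8.41 in vasectomised arrays, and 8.18, 8.90, 8.64 and 9.09 in intact arrays. H2-Eb1, the beta chain of the other class II molecule, gave 8.98, 9.25, 8.19 and 8.05 in controls, 8.81, 8.33, 8.17 and 8.37 in vasectomised arrays, and 7.96, 8.36, 8.37 and 8.66 in intact arrays. For all 3 genes the groups overlapped, with controls 1 and 2 at the top and controls 3 and 4 near the bottom of the whole range. The log2 means of H2-Aa were 8.61 ± 0.953 (SD, n = 4) in controls, 8.35 ± 0.489 in vasectomised and 8.16 ± 0.455 in intact females. H2-Aa was 0.45 lower on the log2 scale in intact females than in controls (95% interval -1.34 to 0.44; limma adjusted p = 0.588), a difference smaller than the spread among controls. The differences of H2-Ab1 and H2-Eb1 in that comparison were -0.09 (SE 0.42; limma adjusted p = 0.937) and -0.28 (SE 0.25; adjusted p = 0.585). In vasectomised females they were -0.14 and -0.20 against controls, with -0.26 for H2-Aa, and the lowest limma adjusted p of these was 0.740. The 95% intervals of H2-Ab1, and of Cd74 described next, reached beyond 1.5-fold in both directions in all 3 comparisons, so changes of that size were not detectable.

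**Figure D1:**
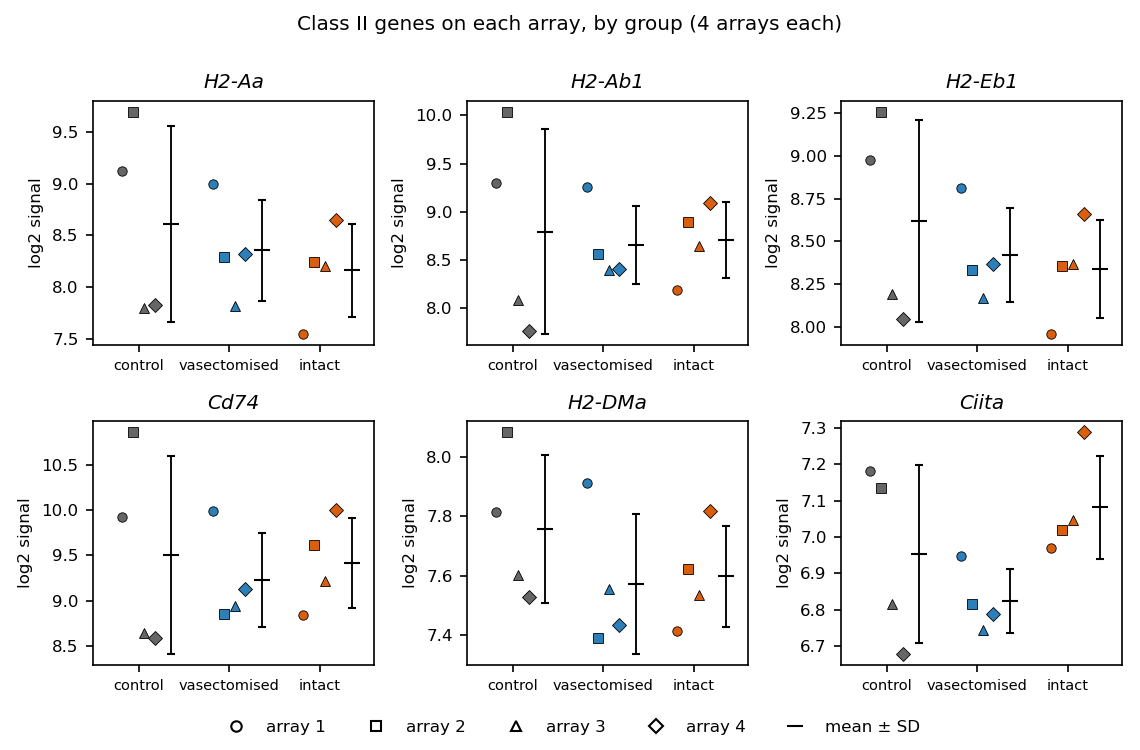
Log2 signal of the 6 class II genes on each of the 12 arrays (vertical axes, each with its own range) by group, with the mean and SD of 4 arrays beside the points. Controls 1 and 2 lie above controls 3 and 4 in every panel, and only for Ciita do all intact arrays lie above all vasectomised arrays.

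The genes that serve the class II chains gave the same picture. Cd74, the invariant chain, gave log2 signals of 9.92, 10.86, 8.65 and 8.59 in controls, 9.99, 8.86, 8.94 and 9.13 in vasectomised arrays, and 8.84, 9.62, 9.22 and 9.996 in intact arrays. Its highest and lowest values were both in controls, so that the mated arrays lay inside the control range. Its differences from controls were -0.09 (SE 0.46; limma adjusted p = 0.945) in intact and -0.28 (adjusted p = 0.806) in vasectomised females. H2-DMa, a chain of the peptide editor, ranged from 7.53 to 8.08 in controls, from 7.39 to 7.91 in vasectomised and from 7.41 to 7.82 in intact arrays, which overlapped. It differed from controls by -0.16 in intact and by -0.18 in vasectomised females (limma adjusted p = 0.582 and 0.539).

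Ciita, the master coactivator, was dim, with a mean of 6.95 below the 7.28 median of all clusters. The mated groups did not overlap, although the difference was small. Intact arrays lay wholly above vasectomised arrays in 6.62% of all clusters and wholly below in 7.34%. Ciita gave log2 signals of 7.18, 7.14, 6.82 and 6.68 in controls, 6.95, 6.81, 6.74 and 6.79 in vasectomised arrays, and 6.97, 7.02, 7.05 and 7.29 in intact arrays. All 4 intact arrays were above all 4 vasectomised arrays, while the controls overlapped with both groups. The difference between mated groups was 0.26 on the log2 scale (95% interval 0.01 to 0.50), which did not pass the limma test across all clusters (adjusted p = 0.267). Against controls it was 0.13 in intact (adjusted p = 0.577, limma) and -0.13 in vasectomised females (adjusted p = 0.600).

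The spread of the class II genes among controls was large for this array set and followed the split of the controls. Controls 1 and 2 averaged 3.41-fold higher than controls 3 and 4 for Cd74, 3.36-fold for H2-Ab1, 3.03-fold for H2-Aa and 1.99-fold for H2-Eb1. Ranked by this difference among 19938 genes, Cd74 was at rank 20, H2-Ab1 at 24, H2-Aa at 34 and H2-Eb1 at 254. Their control SD exceeded that of 99.9%, 99.8%, 99.7% and 98.1% of all clusters, in the same order. Controls 1 and 2 were both above controls 3 and 4 for 9 of the 10 genes, the exception being Cd80.

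With controls 1 and 2 as the only controls, H2-Aa was 1.25 lower on the log2 scale in intact females (difference -1.25, limma adjusted p = 0.0408). H2-Eb1 was 0.78 lower (difference -0.78, limma adjusted p = 0.0351), and both passed the thresholds. This pair was split off after the data were seen and held the high values of these genes. Neither p-value is therefore a test of a difference from unmated females. With controls 3 and 4 as the only controls, the same differences were 0.35 and 0.22 (limma adjusted p = 0.585 and 0.583), and those of H2-Ab1 and Cd74 were 0.78 and 0.80 (adjusted p = 0.111 and 0.188). The direction of the class II genes against unmated females thus turned with the pair of control pools used, and neither direction was called with all 4.

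The mated arrays carried the same kind of order within their groups. Of 7 genes (the 6 class II genes and Itgax), vasectomised array 1 was the highest of its group for 7 and intact array 1 the lowest of its group for 7, and intact array 4 was the highest of its group for 6. Over the 12 arrays the mean of H2-Aa, H2-Ab1 and H2-Eb1 had a Pearson r of 0.96 with Cd74 (Spearman rho 0.94), 0.92 with Itgax (rho 0.94), 0.87 with H2-DMa (rho 0.76) and 0.69 with Ciita (rho 0.74). Without controls 1 and 2, the arrays farthest from the median, r was 0.93, 0.80, 0.74 and 0.60 in the same order. With each group's mean removed, Ciita had r = 0.91 with the class II mean. These r values describe 12 arrays whose genes share RNA pools, and no test was attached to them. Over all 12 arrays r was lower for Cd40 (-0.04), Cd80 (-0.22) and Cd86 (0.29). With group means removed it was 0.44, -0.19 and 0.41, and without controls 1 and 2 it was 0.45, 0.26 and 0.01, in the same order.

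Stromal, macrophage and dendritic cell markers moved along with the class II genes from array to array. The mean log2 signal of 12 stromal and endothelial markers was 9.71, 9.63, 8.69 and 8.66 in controls, 9.44, 8.69, 8.87 and 8.90 in vasectomised arrays, and 8.33, 8.67, 8.84 and 9.10 in intact arrays. That of 17 macrophage and monocyte markers was 8.50, 8.48, 7.94 and 7.76 in controls, 8.54, 8.07, 8.16 and 8.22 in vasectomised arrays, and 7.94, 8.14, 8.15 and 8.43 in intact arrays. Vasectomised array 1 and intact array 4 were the highest of their groups in both lists, as they were in the class II genes. Over the 12 arrays the class II mean had r = 0.91 with the stromal mean (rho 0.83), 0.90 with the macrophage mean (rho 0.85) and 0.88 with the mean of 24 dendritic cell markers (rho 0.92). Without controls 1 and 2 these r were 0.85, 0.94 and 0.93, and over the 8 mated arrays 0.87, 0.92 and 0.92. With the mean of 10 B cell markers r was -0.35, with 12 T and NK cell markers 0.16, with 15 neutrophil markers -0.09, and with 13 epithelial markers -0.63. The part of tissue composition in the class II levels was not tested. In a bulk sample fewer cells of a type cannot be told apart from less RNA per cell.

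**Figure D2:**
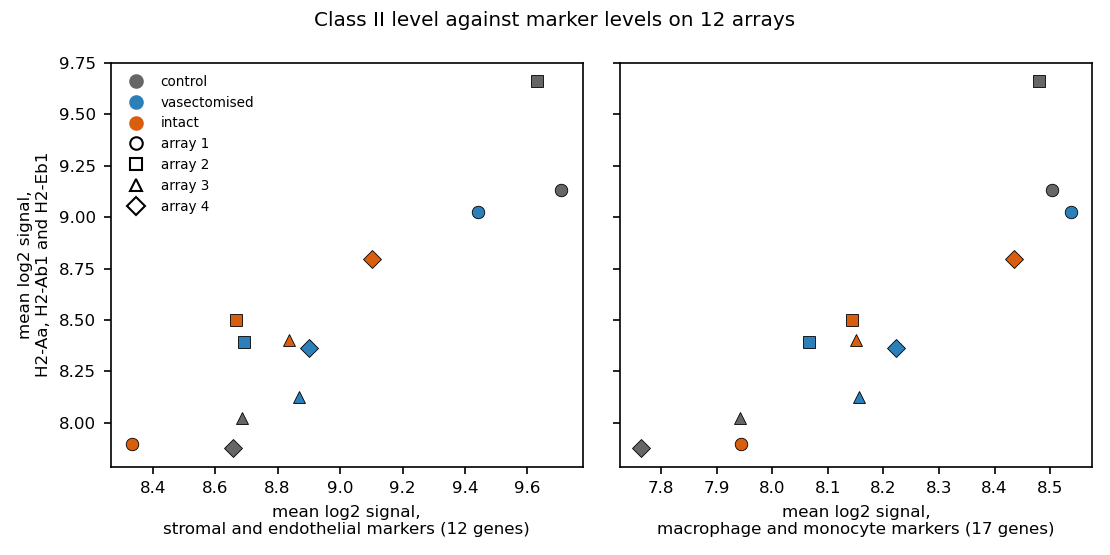
Mean log2 signal of H2-Aa, H2-Ab1 and H2-Eb1 (vertical axis) against the mean log2 signal of 12 stromal and endothelial markers (left) and of 17 macrophage and monocyte markers (right), 1 point for each of the 12 arrays, with colour for the group and shape for the array number. Arrays with high marker levels, led by controls 1 and 2 and vasectomised array 1, had high class II levels.

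Summed on the linear scale, the 12 stromal and endothelial markers lay between 10322 and 19692 in controls, 9322 and 15340 in vasectomised and 7204 and 12707 in intact arrays. In intact females 2 of 12 were called lower than in controls (1.55% of all clusters), Lum (log2 fold-change -0.97) and Col1a1 (-0.75), both of collagen matrix. The count was 7 with controls 1 and 2 only and 0 with controls 3 and 4 only, and 1 when any single intact array was left out. The 17 macrophage markers summed to between 9291 and 12490 in controls, 14034 and 15104 in vasectomised and 13819 and 16450 in intact arrays. Their mean log2 signals, given above, overlapped between the groups. Of the 17, 1 was called, Cd14, a coreceptor for bacterial lipopolysaccharide, higher in intact (log2 fold-change 1.60) and vasectomised females (1.18). Of all clusters 1.95% and 0.987% were called higher in those comparisons. Of 24 dendritic cell markers, summing to between 7855 and 8073 in controls, 6665 and 7297 in vasectomised and 6018 and 6512 in intact arrays, 15 were below the median level of all clusters. The sum is weighted towards the brighter markers. Their mean log2 signal overlapped, between 6.89 and 7.14 in controls, 6.92 and 7.11 in vasectomised and 6.94 and 7.09 in intact arrays. In intact females against controls 2 of the 24 were called (3.49% of all clusters), Ccl22, a chemokine of mature dendritic cells, at 0.66 and Naaa, a lysosomal amidase, at -1.03. In that comparison 11 of the 24 had a positive and 13 a negative log2 fold-change, with a median of -0.01. Flt3 and Zbtb46, named after their values were seen, differed by -0.15 and -0.09 (limma adjusted p = 0.518 and 0.505).

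Costimulation held the only called gene of the 10. Cd40 rose in intact females, with log2 signals of 7.62, 7.66, 7.44 and 7.49 in controls, 7.95, 7.84, 7.79 and 8.35 in vasectomised arrays, and 8.43, 8.58, 8.47 and 8.77 in intact arrays. The 3 groups did not overlap, with controls lowest, vasectomised arrays between and intact arrays highest, and vasectomised array 4 came near the lowest intact array. Its mean was 7.55 ± 0.103 (SD, n = 4) in controls, 7.98 ± 0.255 in vasectomised and 8.56 ± 0.153 in intact females. Against controls Cd40 was 2.01-fold higher in intact females (95% interval 1.68 to 2.41; log2 fold-change 1.01, SE 0.12; limma adjusted p = 0.000196). The mean of vasectomised females was 1.35-fold the control mean (log2 fold-change 0.43, SE 0.12), with 4 of 4 arrays above all controls, which was not called (limma adjusted p = 0.0690). Intact females were 1.495-fold above vasectomised females (95% interval 1.25 to 1.79; log2 fold-change 0.58; limma adjusted p = 0.0287), a difference past the p threshold but just short of the fold threshold, so it was not called.

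Cd40 was called in intact females with either pair of controls. With controls 1 and 2 only, its log2 fold-change in intact females was 0.92, and with controls 3 and 4 only it was 1.10. Leaving out each array in turn gave 0.94 to 1.06 with limma adjusted p of at most 0.00102. Between the mated groups, leaving out vasectomised array 4 moved the difference to 0.70 and leaving out intact array 1 to 0.63, and Cd40 was then called (limma adjusted p = 0.00962 and 0.0333). Leaving out any other single mated array gave 0.51 to 0.61 with limma adjusted p above 0.05, up to 0.0947, and without variance moderation the adjusted p was 0.0654, so the passed p threshold was lost there.

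**Figure D3:**
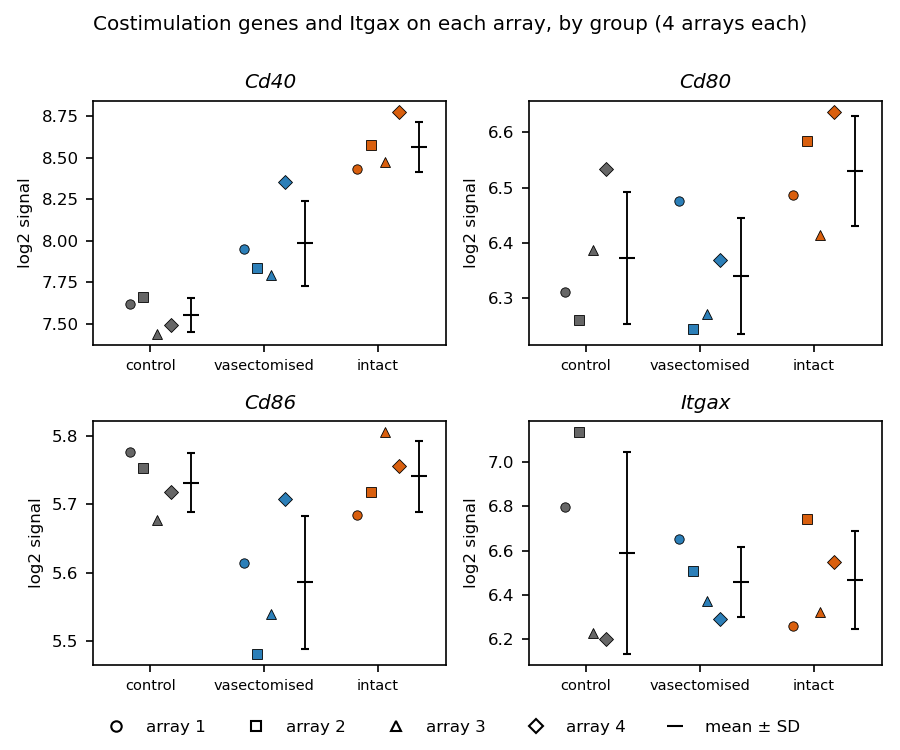
Log2 signal of Cd40, Cd80, Cd86 and Itgax on each of the 12 arrays by group, with the mean and SD of 4 arrays beside the points, each panel with its own vertical range. The Cd40 values of the 3 groups do not overlap, whereas those of Cd80, Cd86 and Itgax do.

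The CD28 ligands were dim and changed little. Cd80 ranged from 6.26 to 6.53 in controls, from 6.24 to 6.47 in vasectomised and from 6.41 to 6.64 in intact arrays, and Cd86 from 5.68 to 5.78, from 5.48 to 5.71 and from 5.69 to 5.81. Both sets of ranges overlapped between intact arrays and controls, and Ciita, Cd80, Cd86 and Itgax had means below 7.28, the median of all clusters, and how much of so dim a signal is background was not tested. Cd80 differed by 0.16 in intact females against controls (limma adjusted p = 0.274) and by 0.19 against vasectomised females (adjusted p = 0.243). A second cluster of Cd80, dimmer than the first, gave 0.26 and 0.33 for the same comparisons (limma adjusted p = 0.263 and 0.214). Cd86 differed by 0.01 in intact females against controls (95% interval -0.13 to 0.14; limma adjusted p = 0.955) and by -0.15 in vasectomised females (adjusted p = 0.228). Itgax, the CD11c chain, ranged from 6.20 to 7.13 in controls, from 6.29 to 6.65 in vasectomised and from 6.26 to 6.74 in intact arrays, and its differences from controls were -0.12 and -0.13 (limma adjusted p = 0.783 and 0.769 for intact and vasectomised females).

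Counted over the 10 genes, 1 was called in intact females against controls, where 3.49% of all 35556 clusters were called in either direction and 1.95% were called higher. In vasectomised females against controls 0 were called by limma (1.43% of all clusters), with 2 at an unadjusted p under 0.05. Between intact and vasectomised females 0 were called by limma (0.796% of all clusters), with 4 at an unadjusted p under 0.05. The share of all clusters at an unadjusted p under 0.05 was not counted. Counts at that threshold, here and in the lists below, therefore cannot be set against it. The shares of all clusters called are the background for those lists as well. The median log2 fold-changes of the 10 genes were -0.09, -0.14 and 0.10 in these 3 comparisons, beside 0.01, 0.01 and -0.00 over all clusters. Intact arrays lay wholly above controls for 1 of the 10, Cd40 (8.05% of all clusters), vasectomised arrays above controls also for Cd40 (7.06%), and intact above vasectomised arrays for Cd40 and Ciita (6.62%). None of the 10 was called lower in any comparison (1.55%, 0.439% and 0.402% of all clusters, in the same order). None lay wholly below in any of them, where 6.18%, 3.62% and 7.34% of all clusters did.

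**Figure D4:**
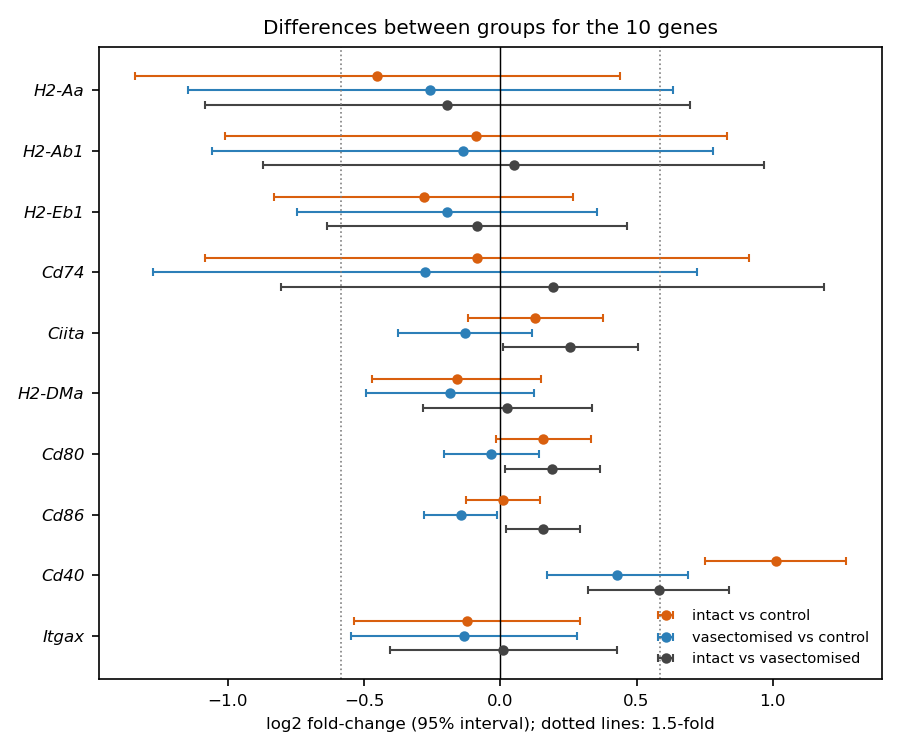
Log2 fold-change (horizontal axis) with its 95% interval from the limma fit for each of the 10 genes in the 3 comparisons, dotted lines at 1.5-fold in each direction. Intervals of H2-Ab1 and Cd74 pass both dotted lines in all 3 comparisons. Those of H2-Aa do so for vasectomised females against controls and between mated groups. The Cd40 interval for intact females against controls lies wholly beyond 1.5-fold.

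Of 22 other measured genes of the class II pathway, 1 was called higher in intact females against controls and 0 lower. Of all clusters 1.95% were called higher and 1.55% lower there. Of the 22 genes, 8 had an unadjusted p under 0.05. Their summed linear signal lay between 33644 and 36100 in controls, 39847 and 41703 in vasectomised and 38175 and 41024 in intact arrays. Both mated groups lay above controls in that sum, which is weighted towards the brightest genes. Their mean log2 signal overlapped, between 9.20 and 9.36 in controls, 9.33 and 9.41 in vasectomised and 9.30 and 9.39 in intact arrays. In intact females against controls their median log2 fold-change was 0.04, with 12 genes positive and 10 negative. The called gene was Unc93b1, a chaperone of endosomal Toll-like receptors, at a log2 fold-change of 0.79 (limma adjusted p = 8.69e-05). The lysosomal protease Ctsl, which can cut the invariant chain, was 1.44-fold the control level in intact females (log2 fold-change 0.53; limma adjusted p = 0.000434), short of 1.5-fold. Ifi30, a thiol reductase of antigen processing, differed by -0.40 (adjusted p = 0.00287, limma), also short of the fold threshold. H2-Ea, the alpha chain that pairs with the H2-Eb1 product, differed by -0.39 (SE 0.37; limma adjusted p = 0.607). It gave 8.34, 8.53, 6.97 and 6.81 in controls, the same high and low pools as its partner. In vasectomised females 0 of the 22 were called against controls by limma, with 9 at an unadjusted p under 0.05 and 6 at an adjusted p under 0.05 but under 1.5-fold, the proteases Ctss, Ctsl and Ctsd, Ifi30, Sppl2a and Unc93b1 (Ctss, Ctsd and Sppl2a chosen after their values were seen). Ctss, which cuts the invariant chain, had a log2 fold-change of 0.55 there (adjusted p = 0.0313, limma). The share of all clusters at an adjusted p under 0.05 but under 1.5-fold was not counted, so the count of 6 has no background. Of the 22, 0 were called by limma between mated groups, with 3 at an unadjusted p under 0.05.

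Of 13 genes on the interferon-gamma route that induces Ciita, 1 was called higher in intact females against controls (1.95% of all clusters). It was the receptor chain Ifngr2 (0.62 on the log2 scale, limma adjusted p = 0.000652). The signal transducer Jak2 differed by -0.57 (adjusted p = 0.000518, limma), which is 0.673-fold and short of the fold threshold. The feedback inhibitors Socs1 and Socs3 each differed by 0.41 (limma adjusted p = 0.00308 and 0.0432) and were not called. Against controls in vasectomised females, and between mated groups, 0 of 13 were called by limma, with 2 and 3 at an unadjusted p under 0.05.

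In the class I pathway, which presents peptides from the cell's own proteins, 4 of 21 measured genes were called higher in intact females against controls (1.95% of all clusters) and 0 lower (1.55%). They were Psmb8 (log2 fold-change 0.74; limma adjusted p = 1.79e-05) and Psmb9 (0.62), subunits of the immunoproteasome, Psme2 (0.69), a proteasome activator, and H2-T10 (0.61), a class I-like molecule. Psmb8 gave 8.90, 8.86, 9.003 and 9.01 in controls and 9.80, 9.59, 9.64 and 9.72 in intact arrays. Those ranges were well separated, and both pairs of controls gave like values. The median log2 fold-change of the 21 genes was 0.39 against 0.01 over all clusters. H2-K1, H2-D1, H2-T22 and H2-T23 were also listed but had no cluster with a single symbol, so these class I molecules were not examined. In vasectomised females 0 were called against controls by limma, with 16 at an unadjusted p under 0.05, and 0 between mated groups, with 8.

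Of 18 other measured ligands through which presenting cells steer T cells, 5 were called higher in intact females against controls, 0 lower and 13 were not called. Of all clusters 1.95% were called higher and 1.55% lower there. The median log2 fold-change of the 18 was 0.16, beside 0.01 over all clusters. Icam1, the adhesion ligand of LFA-1, gave 8.32, 8.46, 7.83 and 7.61 in controls, 9.36, 8.67, 9.32 and 9.54 in vasectomised arrays, and 9.71, 9.89, 9.60 and 10.12 in intact arrays. The groups did not overlap, and Icam1 was 3.42-fold higher in intact females (log2 fold-change 1.77, SE 0.21; limma adjusted p = 0.000225) and 2.25-fold higher in vasectomised females (1.17; adjusted p = 0.0104). Cd274, the inhibitory ligand PD-L1, gave 7.02, 6.81, 6.90 and 6.70 in controls, 7.24, 7.09, 7.35 and 7.46 in vasectomised arrays, and 7.83, 7.93, 7.57 and 8.00 in intact arrays. It was 1.96-fold higher in intact females (log2 fold-change 0.97, SE 0.11; limma adjusted p = 0.000131), and was not called in vasectomised females (0.42; adjusted p = 0.0503).

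Pvr, a ligand of the receptors DNAM-1 and TIGIT, was 1.89-fold higher in intact females than in controls (limma adjusted p = 8.36e-05). Tnfsf9, the ligand of 4-1BB, was 1.82-fold higher (adjusted p = 0.000698, limma). Vtcn1, the inhibitory ligand B7-H4, was 1.74-fold higher and is named here after its values were seen. In vasectomised females, the log2 fold-changes of Pvr, Tnfsf9 and Vtcn1 were 0.51, 0.52 and 0.51 against controls, none of them called. Icam1 was the only 1 of the 18 called in vasectomised females against controls, where 0.987% of all clusters were called higher. With controls 1 and 2 only 0 were called, and with controls 3 and 4 only 3. Between mated groups 0 were called by limma (0.796% of all clusters), with 9 at an unadjusted p under 0.05.

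**Figure D5:**
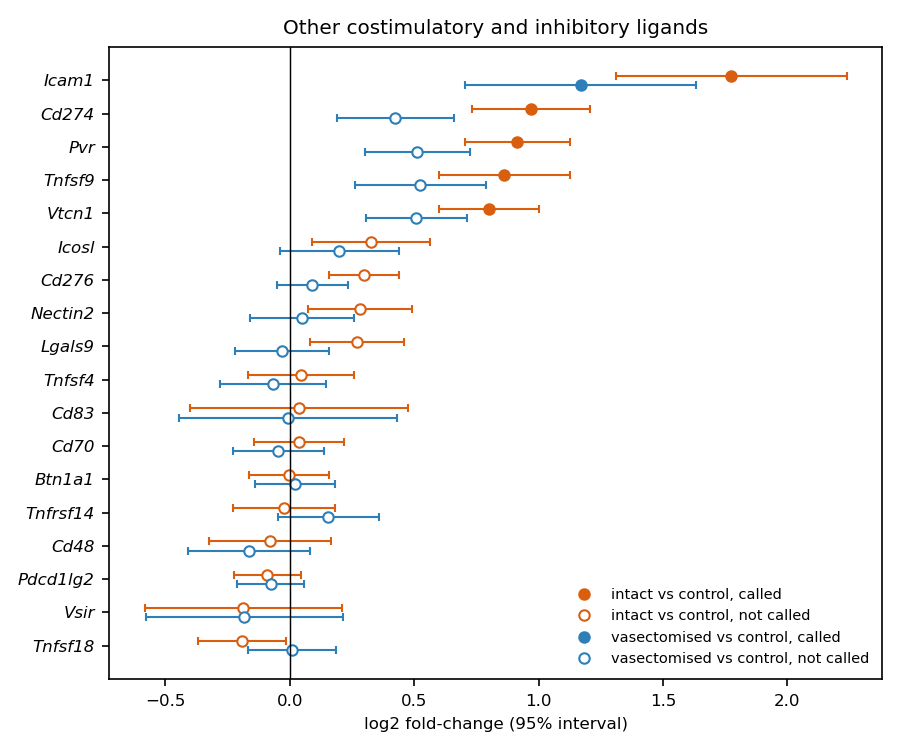
Log2 fold-change (horizontal axis) with its 95% interval for 18 other costimulatory and inhibitory ligands in intact and in vasectomised females against the same 4 controls, filled points for called genes. Icam1, Cd274, Pvr, Tnfsf9 and Vtcn1 are called in intact females, and Icam1 alone in vasectomised females.

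The receptors that T cells carry for these ligands were dim, with 11 of 14 below the median level of all clusters. In intact females 1 was called higher than in controls (1.95% of all clusters), Tnfrsf9, which encodes 4-1BB. It gave 7.28, 7.13, 7.06 and 6.99 in controls and 7.58, 7.77, 7.73 and 7.84 in intact arrays (log2 fold-change 0.61, limma adjusted p = 0.00042). These 2 groups did not overlap, and at 1.53-fold the call was lost without control 4, without intact array 4 and with controls 1 and 2 only. Cd40lg, the ligand of CD40, differed by 0.08 in intact females (limma adjusted p = 0.626, chosen after its values were seen), with log2 signals from 5.24 to 5.62 over all arrays. In vasectomised females 0 were called against controls by limma, with 1 at an unadjusted p under 0.05, and 0 between mated groups, with 1.

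Among 14 genes of the pathway that CD40 uses, 4 were called higher in intact females against controls (1.95% of all clusters) and 1 lower (1.55%). Tnfaip3, a brake on NF-κB, gave 8.24, 8.70, 7.25 and 7.31 in controls, 9.68, 9.51, 9.75 and 10.26 in vasectomised arrays, and 10.53, 10.92, 10.31 and 10.55 in intact arrays. It was 6.49-fold higher in intact females (log2 fold-change 2.70; limma adjusted p = 9.81e-05) and 3.80-fold higher in vasectomised females (1.92; adjusted p = 0.00361), and all mated arrays lay above all controls. Birc3, a ubiquitin ligase of the receptor complex, was 2.49-fold higher in intact and 1.80-fold higher in vasectomised females (limma adjusted p = 2.33e-06 and 0.00028). Relb and Nfkb2, subunits of the non-canonical NF-κB dimer, were 2.00-fold and 1.93-fold higher in intact females (limma adjusted p = 8.36e-05 and 0.000423). Traf1, an adaptor at the receptor, fell by 0.75 on the log2 scale (limma adjusted p = 0.00658) and is named after its values were seen. In vasectomised females 2 of 14 were called higher than in controls (0.987% of all clusters). That count became 4 without control 2 or without vasectomised array 2, and 5 with controls 3 and 4 only. Between mated groups 0 of 14 were called by limma (0.796% of all clusters), with 9 at an unadjusted p under 0.05.

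Of 15 neutrophil markers, 4 were called higher in intact females than in controls (1.95% of all clusters) and 11 were not called. The same 4 were called higher than in vasectomised females (0.394% of all clusters). Of the 15, 12 were below the median level of all clusters, the 4 called among them, so that with dim clusters left out these were not tested and 0 markers were called. The mean log2 signal of all 15 lay between 7.20 and 7.29 in controls, 7.27 and 7.44 in vasectomised and 7.55 and 7.87 in intact arrays, and their summed signal between 26253 and 30238, 33202 and 33833, and 33204 and 35031. The 4 were Cxcr2 (2.25 against controls and 1.92 against vasectomised females), S100a9 (1.43 and 1.17), Csf3r (1.14 and 1.08) and Trem1 (0.87 and 0.81), of which Cxcr2 is the chemokine receptor of these cells. Between mated groups the count of 4 fell to 2 or fewer without intact array 2 or 4 or when any single vasectomised array was left out, and to 2 with a replicate block. The part of neutrophils in the rise of Cd40 was not tested. Of 10 B cell markers, summed between 895 and 1066 in controls, 858 and 984 in vasectomised and 938 and 999 in intact arrays, 0 were called in any comparison by limma, with 2, 1 and 0 at an unadjusted p under 0.05 in intact against control, vasectomised against control and intact against vasectomised females. Of 12 T and NK cell markers, summed between 971 and 1070, 933 and 1014, and 1017 and 1057, 0 were called, with 2, 1 and 1. Of 13 epithelial markers, summed between 62781 and 68973, 64439 and 68142, and 66908 and 69638, 0 were called, with 4, 3 and 5.

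The genes whose pattern was most like that of the class II mean over the 12 arrays, out of 19928 searched, were Faxc (Pearson r = 0.99), H2-Ea (0.99), Nkd2 (0.98), Tgfbi (0.98) and Pld4 (0.97). Those most like Cd40 were Rhof (0.98), Dgat2 (0.98), Il17c (0.97), an epithelial cytokine, Il22ra1 (0.97), a receptor chain for interleukin-22, and Rassf4 (0.97). H2-Ea was the only other class II chain among them, and none of the 10 genes was open to the search.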

How the data were processed

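The groups came from the sample labels. The authors labelled 300 ng of total RNA per array, used Partek Genomics Suite to apply RMA background correction, adjust for probe GC content and summarize probes by their mean, and the log2 values they deposited were used here without further normalization. Which genome build and software versions were used is not given in the sources used here. Unused per-array columns numbered 0. Clusters were named through the platform annotation given with the data: 21789 had 1 symbol, 1621 several and 12146 none. The lowest correlation between arrays of a group was 0.983. Each of 35556 clusters was fitted with 1 mean per group over 12 arrays in limma 3.58.1 (R 4.3.3; 9 residual and 3.26 prior degrees of freedom), and p-values were corrected by Benjamini-Hochberg over all clusters. The code was tested on simulated data. Of 223 listed genes 205 were measured. The 10 genes, the lists and the tests were chosen with earlier results of these data known. All 10 genes were named, with up to 4 genes of each list with the largest change in intact females against controls, any list gene called between mated groups, and the 5 genes most like the class II mean and Cd40. Promoters came from RefSeq (GRCm38.p6). Alternatives were quantile normalization, median centring, trend and robust moderation, no moderation, array weights, blocking by replicate number, a fit restricted to the groups compared, leaving out dim clusters, correction over 1 cluster per gene, other fold thresholds, the next Cd80 cluster, leaving out each array and, after the data were seen, each pair of controls alone. The number of arrays limits the precision.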

Additional observations from a re-analysis of the deposited data

How the results depend on the processing

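In intact females against controls, 1 of the 10 genes, Cd40, was called under every alternative listed in the methods except that 3 were called with controls 1 and 2 only. That pair was split off after the data were seen, so the count of 3 is not a test. In vasectomised females against controls 0 were called under all alternatives. Between mated groups the count of 0 became 1, Cd40, after quantile normalization (log2 difference 0.62), after median centring (0.61) and without a fold threshold, and leaving out single arrays gave 0 to 1. Of 261 fold-changes of the 10 genes under the alternatives other than leaving out single arrays or a pair of controls, 0 changed sign and 2 changed call.

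With controls 3 and 4 only, differences that had been negative turned positive. In intact females they were 0.35 for H2-Aa, 0.78 for H2-Ab1, 0.22 for H2-Eb1, 0.80 for Cd74, 0.0331 for H2-DMa and 0.25 for Itgax. In vasectomised females they were 0.54 for H2-Aa, 0.74 for H2-Ab1, 0.30 for H2-Eb1, 0.61 for Cd74, 0.0772 for Ciita, 0.00796 for H2-DMa and 0.24 for Itgax. With controls 1 and 2 only, Ciita and Cd86 turned to -0.0775 and -0.0244 in intact females and Cd80 to 0.0546 in vasectomised females. The cause was not tested.

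Leaving out single arrays turned the sign of 32 fold-changes, none of them called. Against controls in intact females the values ran from -0.44 to 0.32 for H2-Ab1, -0.39 to 0.37 for Cd74, -0.25 to 0.0595 for Itgax and -0.0120 to 0.0281 for Cd86. Against controls in vasectomised females they ran from -0.53 to 0.10 for H2-Aa, -0.48 to 0.28 for H2-Ab1, -0.39 to 0.0169 for H2-Eb1, -0.58 to 0.17 for Cd74, -0.26 to 0.0483 for Itgax and -0.0778 to 0.0208 for Cd80. Between mated groups they ran from -0.38 to 0.0206 for H2-Aa, -0.0799 to 0.25 for H2-Ab1, -0.19 to 0.0444 for H2-Eb1, -3.3e-06 to 0.44 for Cd74, -0.0488 to 0.14 for H2-DMa and -0.0797 to 0.0809 for Itgax, and those of Cd40, 0.51 to 0.70.

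With replicate number as a block, Cd40 had a log2 fold-change of 1.01 in intact females against controls (limma adjusted p = 0.000626), and the block changed no call of the 10 genes. Numbers did not pair the arrays, since only 2 of 12 same-numbered pairs of deviations correlated above 0.1, and 3 of 12 arrays correlated best with their own number. Among lists, a fold-change of at least 2 in intact females against controls left 1 of the 18 ligands and 2 of the CD40 pathway genes called. Without a fold threshold, 11 class I genes and 6 other class II pathway genes were called. The shares of all clusters called at these settings were not counted, so these counts cannot be set against them.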
